A study of Homo sapiens with 16 samples.

Results

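CTGF, CYR61, ANKRD1, AMOTL2, F3, NUAK2, CRIM1 and PTPN14 are 8 genes widely used as direct transcriptional targets of YAP and TEAD. They were taken by gene symbol from the deposited table, where they are 8 of 24293 loci, and all 8 were among the 11647 loci abundant enough to test (a mean of at least 1 FPKM). They were selected on their FPKM with gefitinib against vehicle as well as on their name: CTGF, CYR61, ANKRD1, AMOTL2 and NUAK2 for means above those of vehicle, and F3, CRIM1 and PTPN14 for means below them. The comparison of gefitinib with vehicle is therefore described here without a test.

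The libraries came from HCC4006, an established line of non-small cell lung cancer whose EGFR carries an activating mutation. After 24 hours of growth the cells received one of 4 treatments for 24 hours: DMSO as vehicle (CTRL), 100 nM gefitinib, which inhibits the EGFR kinase (GEF), 100 nM of the tankyrase inhibitor AZ1366, or both compounds at 100 nM each (GEF_AZ1366). All 4 groups share the one line, its medium and the polyA RNA libraries, and each group held 4 libraries, 16 in all. Abundance was given as FPKM, fragments scaled by transcript length and library size, so that levels can be compared between genes.

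YAP and its paralog TAZ (encoded by WWTR1) are transcriptional coactivators with no DNA-binding domain of their own, and they reach their target genes mainly through the TEAD transcription factors. The Hippo kinases, with LATS1 and LATS2 as the last step, phosphorylate YAP and TAZ and keep them in the cytoplasm, and angiomotin family proteins bind them there. Tankyrases attach poly(ADP-ribose) chains to proteins and so mark them for degradation. Axin and the angiomotins are among those proteins, and tankyrase inhibitors are known both as inhibitors of Wnt signalling and as compounds that stabilise angiomotins. In lung cancers driven by EGFR, YAP activity is studied for its part in the survival of cells under EGFR inhibitors.

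The 8 products have different roles. CTGF and CYR61 (now CCN2 and CCN1) are secreted matricellular proteins, and their genes are the standard readouts of YAP activity. ANKRD1 is an ankyrin repeat protein of muscle and of stressed cells, with a part in transcription and in the sarcomere. AMOTL2, an angiomotin family protein, and PTPN14, a tyrosine phosphatase, both bind YAP and restrain it, so that they are feedback targets. NUAK2 is a kinase of the AMPK-related family, F3 is tissue factor, the cell-surface starter of blood coagulation, and CRIM1 is a transmembrane protein that binds bone morphogenetic proteins.

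Promoter windows of RefSeq (GRCh38.p14), from 250 bases before to 50 bases after each gene start, were found for 6 of the 8 genes: CTGF, ANKRD1, AMOTL2, F3, NUAK2 and PTPN14. They were searched on both strands for the core TEAD motif GGAATG, whose other strand reads CATTCC, and for the AP-1 motif TGANTCA, a binding sequence of JUN and FOS factors, which occupy many YAP-bound elements together with TEAD. Windows of 5 genes held a TEAD motif and windows of 2 held an AP-1 motif, and no motif found overlapped another. The promoters of CTGF, with TEAD motifs alone, ANKRD1, with both motifs, and F3, with AP-1 motifs alone, are printed here, 5′ to 3′ on the minus strand on which all 3 genes lie, over the 250 bases before the start, with the motifs in capitals. CTGF lies at chr6:131951373-131951622, ANKRD1 at chr10:90921088-90921337 and F3 at chr1:94541760-94542009.
CTGF: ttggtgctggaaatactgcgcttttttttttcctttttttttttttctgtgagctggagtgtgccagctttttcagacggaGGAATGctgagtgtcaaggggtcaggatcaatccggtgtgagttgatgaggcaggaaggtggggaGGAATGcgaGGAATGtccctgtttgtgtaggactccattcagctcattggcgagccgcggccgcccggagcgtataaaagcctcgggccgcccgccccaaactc
ANKRD1: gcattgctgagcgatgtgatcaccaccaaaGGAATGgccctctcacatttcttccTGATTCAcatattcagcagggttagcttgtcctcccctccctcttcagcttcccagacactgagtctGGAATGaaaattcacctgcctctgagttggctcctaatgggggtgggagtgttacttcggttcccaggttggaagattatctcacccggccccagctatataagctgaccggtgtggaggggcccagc
F3: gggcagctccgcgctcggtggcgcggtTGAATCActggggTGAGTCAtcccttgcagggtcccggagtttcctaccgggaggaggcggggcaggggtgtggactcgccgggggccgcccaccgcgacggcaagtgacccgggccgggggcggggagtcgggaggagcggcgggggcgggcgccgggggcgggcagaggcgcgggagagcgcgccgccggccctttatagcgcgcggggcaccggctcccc

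The CTGF window held 3 TEAD motifs, which began 169, 104 and 95 bases before the start. ANKRD1 had 2 TEAD motifs, 220 and 128 bases before the start, and an AP-1 motif 195 bases before it. F3 had no TEAD motif within these 300 bases and 2 AP-1 motifs, 223 and 210 bases before the start. Of the other 3 genes, gefitinib raised NUAK2, which held 2 TEAD motifs, and AMOTL2, which held 1, and lowered PTPN14, which also held 1. Their sites are shown with 12 bases on each side. They lie at chr1:205321925-205321954 and chr1:205321746-205321775 (NUAK2), chr3:134374499-134374528 (AMOTL2) and chr1:214551785-214551814 (PTPN14), all printed on the minus strand of GRCh38.p14.
NUAK2, 197 bases before the start: tcccctagtcccCATTCCtggtgggcgggt
NUAK2, 18 bases before the start: ttataacaacttGGAATGctgtgctttact
AMOTL2, 69 bases before the start: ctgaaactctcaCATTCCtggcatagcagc
PTPN14, 200 bases before the start: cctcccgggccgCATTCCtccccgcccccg

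Of 35116 RefSeq promoters of this length, 14.03% held at least 1 TEAD motif, 1.37% at least 2 and 0.128% at least 3. At least 1 AP-1 motif was present in 7.71% of them and at least 2 in 0.515%. AMOTL2 has 2 windows, of which the other held neither motif. A match shows that the letters are present and nothing about occupancy, and enhancers, where much TEAD binding takes place, lie outside these windows.

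**Figure D1:**
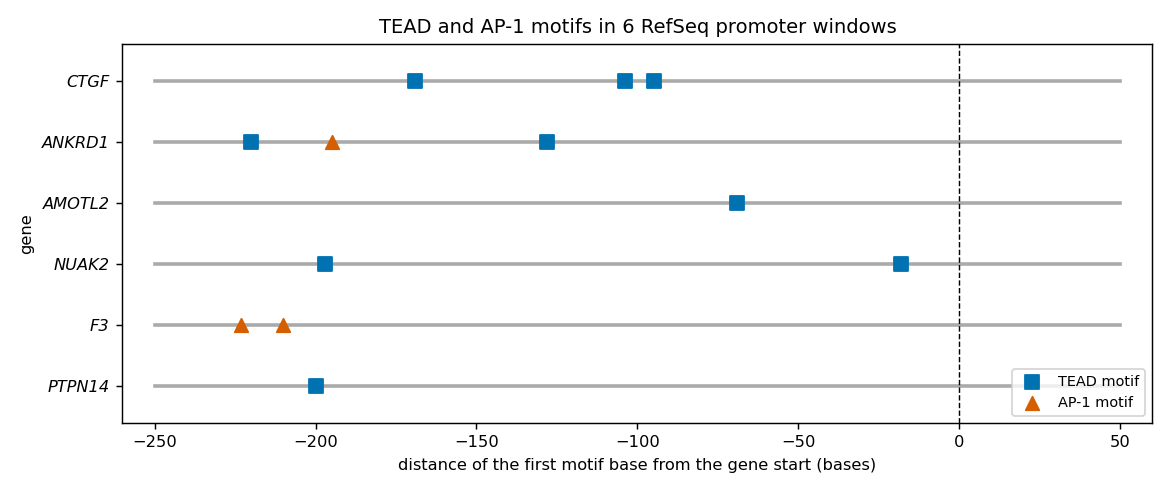
Positions of TEAD (squares) and AP-1 (triangles) motifs in the promoter windows of 6 genes, as the distance in bases of the first motif base from the gene start (dashed line). CTGF carries 3 TEAD motifs, ANKRD1 and NUAK2 carry 2 each, and F3 carries 2 AP-1 motifs and no TEAD motif.

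Library sums of FPKM ran from 433357 to 478179. Without read numbers, the depth behind a value is unknown and its counting error cannot be given. Libraries of a group correlated at 0.991 to 0.998 across loci, and 0 pairs were identical. All 6 epithelial markers (EPCAM, CDH1, KRT7, KRT8, KRT18 and KRT19) reached a mean of 1 FPKM, while 0 of 4 leukocyte and 0 of 3 endothelial markers did, with no gene of these above a mean of 0.622. Of 3 lung lineage markers only NKX2-1 did (7.58 FPKM), and of 5 fibroblast markers only COL1A1 (1.77 FPKM). The 5 fibroblast markers summed to 2.27 to 2.66 FPKM in vehicle and 1.95 to 2.54 FPKM in AZ1366 libraries, and to 3.72 to 3.93 FPKM under gefitinib and 3.22 to 3.65 FPKM under both compounds, and their part in the results was not tested. DUSP6, a phosphatase gene that ERK signalling induces, stood at 23.5 ± 0.334 FPKM in vehicle and 22.8 ± 2.63 FPKM in AZ1366 libraries, and at 2.71 ± 0.235 FPKM in gefitinib libraries and 2.99 ± 0.403 FPKM under both compounds (SD, n = 4).

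AZ1366 replicate 1 stood apart within its group, and not for these genes alone. The median over loci of its level relative to the geometric mean of the 16 libraries was 1.09. In the other AZ1366 libraries that median was 0.912 to 0.972, so a typical locus was also higher in replicate 1. It was above the other 3 AZ1366 libraries for 7 of the 8 genes, all but CTGF, and below every vehicle library for all 8. Its CRIM1 level, for example, was 36.5 FPKM against 26.1 to 28.8 FPKM in the others. Without it all 8 genes passed the test against vehicle with the same sign, where 5716 of 11647 loci were called lower and 7894 in either direction.

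AZ1366 lowered all 8 genes in cells that received no gefitinib. Each fell past the threshold (limma on log2(FPKM + 1), Benjamini-Hochberg adjusted p under 0.05 over all tested loci), in a comparison in which 39.8% of loci were called lower and 58.4% were called in either direction. No AZ1366 library reached the level of any vehicle library for any of the 8 genes, against 26.0% of loci with that separation. Their median change was -0.91 on the log2 scale, beside -0.10 over all loci. In bulk RNA, fewer cells expressing a gene and less RNA per cell cannot be told apart.

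CTGF (hg19 chr6:132269317-132272518) was at 19.5, 19.6, 19.7 and 19.7 FPKM in the vehicle libraries and at 9.14, 9.07, 9.31 and 9.16 FPKM with AZ1366. The 4 values of each group lay close together and far from the other group. The mean fell by 53.2%, from 19.6 ± 0.110 to 9.17 ± 0.102 FPKM (SD, n = 4), a log2 change of -1.02 ± 0.045 (SE, adjusted p = 2.22e-10). CYR61, the other matricellular gene (hg19 chr1:86046444-86049648), measured 133, 131, 129 and 121 FPKM with vehicle and 86.1, 74.0, 80.4 and 78.5 FPKM with AZ1366. The highest AZ1366 library was well below the lowest vehicle library. Its log2 change was -0.68 ± 0.058 (SE, adjusted p = 2.01e-07), smaller than that of CTGF.

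ANKRD1 (hg19 chr10:92671857-92681032) changed most. Its vehicle libraries ranged from 13.5 to 13.7 FPKM, and the AZ1366 libraries were at 5.58, 4.42, 5.32 and 4.16 FPKM. The mean fell by 64.2%, a log2 change of -1.32 ± 0.075 (SE, adjusted p = 2.08e-09), the 5th lowest of the 11647 tested loci. F3 (hg19 chr1:94994732-95007413), the most abundant of the 8 genes with vehicle, gave 219.6, 236, 240.1 and 216 FPKM there and 117, 95.5, 101 and 106 FPKM with AZ1366. Every AZ1366 library was far below every vehicle library. Its log2 change of -1.11 ± 0.061 (SE, adjusted p = 1.09e-09) ranked 20th from the lowest.

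The feedback genes fell as well. AMOTL2 (hg19 chr3:134074190-134093406) was at 30.4, 24.6, 24.1 and 26.2 FPKM with vehicle and at 15.9, 10.7, 11.2 and 12.2 FPKM with AZ1366, a log2 change of -1.03 ± 0.11 (SE, adjusted p = 2.12e-06). PTPN14 (hg19 chr1:214522039-214725024) was at 9.01 ± 0.219 FPKM with vehicle and 5.14 ± 1.10 FPKM with AZ1366 (SD, n = 4), a change of -0.72 (adjusted p = 2.33e-05). In both genes replicate 1 was the highest of the AZ1366 libraries. CRIM1 (hg19 chr2:36583370-36778278) went from 51.5 ± 1.44 to 29.5 ± 4.78 FPKM (SD, n = 4), a change of -0.79 (adjusted p = 2.62e-06). The kinase gene NUAK2 (hg19 chr1:205271191-205290883) fell by 38.7%, from 8.44 ± 0.398 to 5.17 ± 0.939 FPKM (SD, n = 4), or -0.62 on the log2(FPKM + 1) scale (adjusted p = 2.81e-05), close to the 37.9% of CYR61. With each library corrected for a smooth trend on transcript length and GC content, the changes of NUAK2 and PTPN14 were -0.33 and -0.44, and both still passed.

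**Figure D2:**
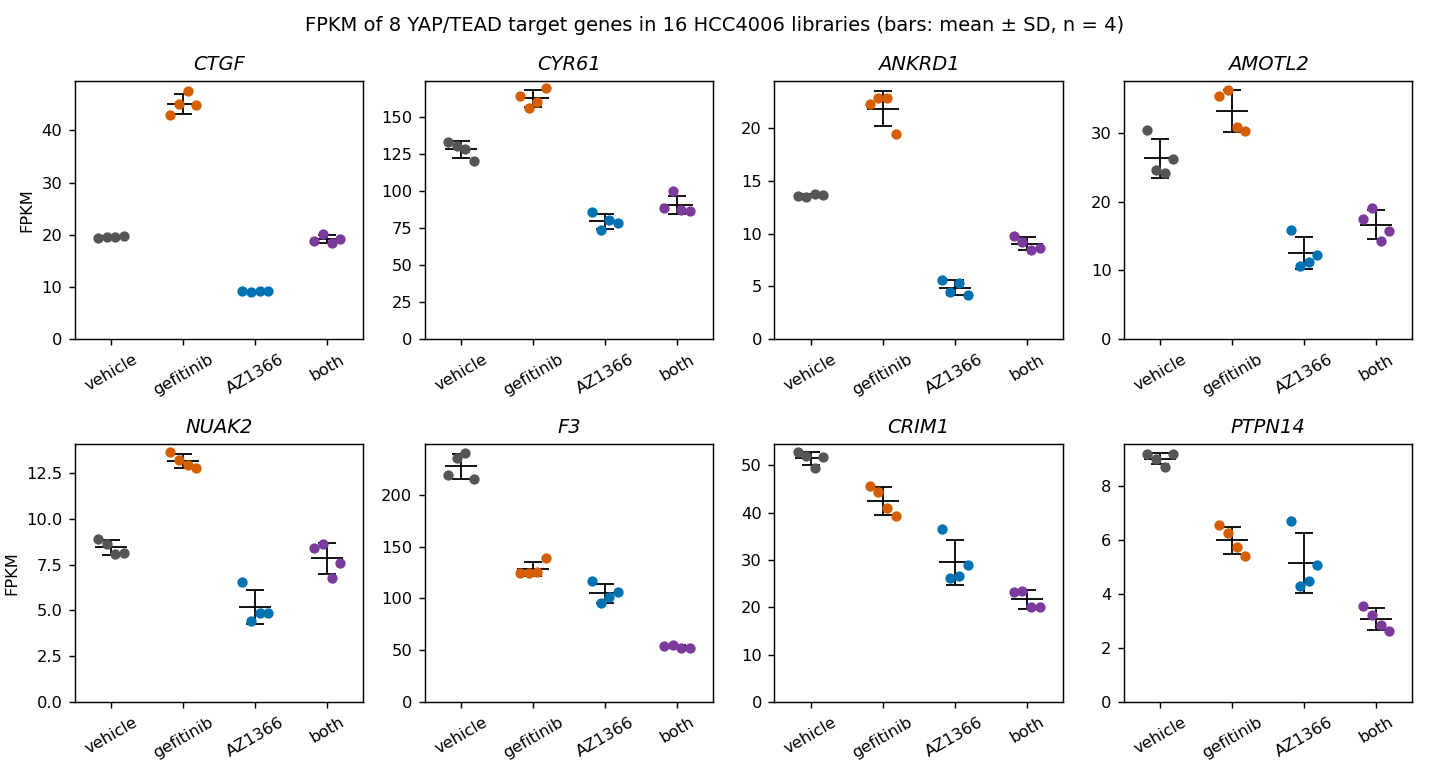
FPKM (vertical axes, linear from 0) of the 8 genes in the 4 treatment groups; each point is a library, and bars give the mean ± SD of 4 libraries. In every panel the AZ1366 libraries lie below all vehicle libraries and the libraries with both compounds lie below all gefitinib libraries.

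The same comparison was made in separate libraries that all contained gefitinib. Adding AZ1366 to gefitinib lowered all 8 genes past the threshold, where 37.2% of loci were called lower and 52.5% in either direction. The median change was -0.95 on the log2 scale, beside -0.10 over all loci. For none of the 8 genes did a library with both compounds reach the lowest gefitinib library, a separation held by 34.4% of loci.

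CTGF was at 43.0, 45.1, 47.6 and 44.9 FPKM with gefitinib and at 18.9, 20.2, 18.4 and 19.1 FPKM with both compounds. Its mean fell by 57.6%, a log2 change of -1.20 ± 0.045 (SE, adjusted p = 1.48e-11). F3 went from 124, 125, 126 and 139 FPKM with gefitinib to 54.3, 55.4, 52.2 and 52.2 FPKM with both. The groups were far apart even against the highest gefitinib library. The mean of F3 fell by 58.3%, a log2 change of -1.25 ± 0.061 (SE, adjusted p = 6.56e-10), the 5th lowest of all tested loci on the log2(FPKM + 1) scale. ANKRD1 was at 22.3, 22.8, 22.9 and 19.4 FPKM with gefitinib and at 9.80, 9.22, 8.45 and 8.65 FPKM with both, a fall of 58.7% and a log2 change of -1.19 ± 0.075 (SE, adjusted p = 1.13e-08).

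The other 5 genes had log2 changes between -0.68 (NUAK2) and -0.96 (AMOTL2). CYR61 fell by 44.3%, with 164, 156, 160.4 and 169.7 FPKM under gefitinib and 88.7, 99.9, 87.2 and 86.6 FPKM under both (log2 change -0.84, adjusted p = 2.03e-08). AMOTL2 went from 33.2 ± 3.05 to 16.6 ± 2.12 FPKM (SD, n = 4), with adjusted p = 4.24e-06. CRIM1 and PTPN14 changed by -0.94 (adjusted p = 4.47e-07) and -0.79 (adjusted p = 9.81e-06), the latter -0.47 with the correction for length and GC content. NUAK2, at 13.1 ± 0.381 FPKM with gefitinib and 7.85 ± 0.849 FPKM with both (SD, n = 4), passed with adjusted p = 1.15e-05.

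The difference between the AZ1366 effects with and without gefitinib (the interaction) contains the values of gefitinib against vehicle on which the genes were selected, so it is given as a description. It was -0.18 ± 0.063 for CTGF on the log2 scale (SE), whose fall was the larger one with gefitinib present, 0.13 ± 0.107 for ANKRD1 and 0.07 ± 0.156 for AMOTL2. The other 5 genes lay between -0.16 (CYR61) and -0.06 (NUAK2). Of the 8 genes 0 were past the threshold (limma, 1 at an unadjusted p under 0.05, CTGF), where 1.82% of all loci were, and nothing is read from that count.

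The AZ1366 effects came from separate libraries, but from a single fit with a shared estimate of the spread. The vehicle and gefitinib libraries among them are those on which the genes were selected. These effects had the same sign and passed in both settings for 8 of 8 genes. Over all tested loci 29.0% were called lower in both. Across the 8 genes the effects without and with gefitinib had a Pearson correlation of 0.884 and a Spearman correlation of 0.857, given as a description of 8 genes that share their libraries.

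**Figure D3:**
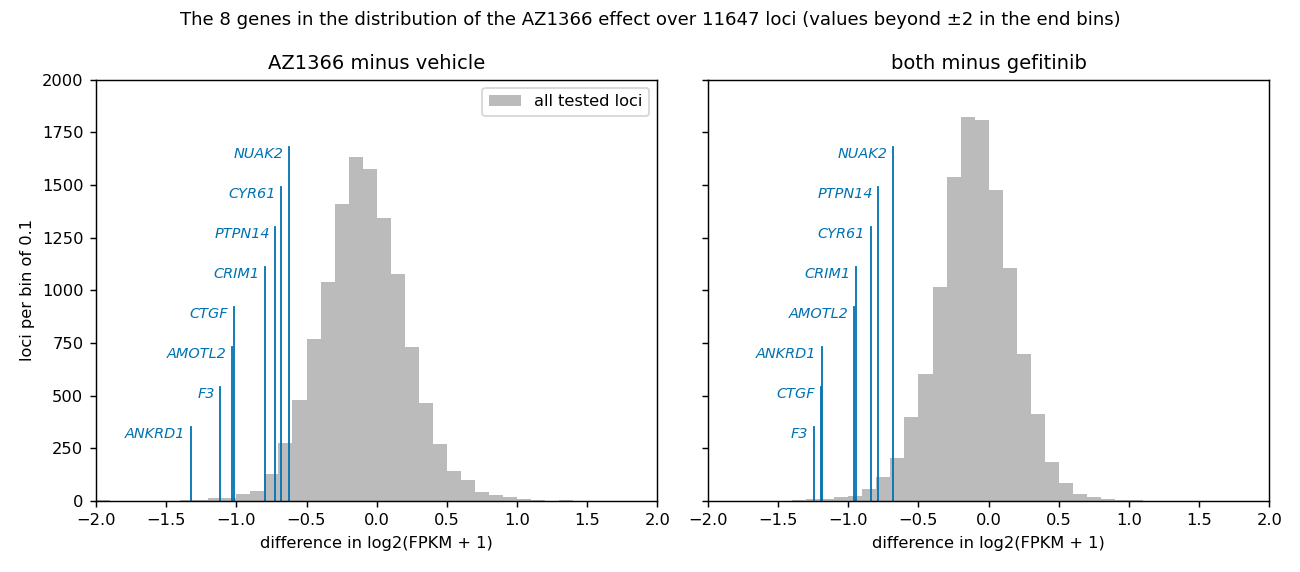
Histogram of the AZ1366 effect over all tested loci (horizontal axis, difference in log2(FPKM + 1); vertical axis, loci per bin of 0.1), without gefitinib on the left and with it on the right, with the 8 genes marked at their values. All 8 lie in the lower tail of both panels, NUAK2 nearest the centre at -0.62 and -0.68.

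Gefitinib alone separated the genes into 5 with a higher mean and 3 with a lower mean than vehicle, which is the pattern for which they were chosen. Their ratios of means give its size. CTGF stood highest at 45.1 ± 1.88 FPKM, 2.30 times its vehicle mean, followed by ANKRD1 at 1.61 times (21.9 ± 1.64 FPKM), NUAK2 at 1.56 times, CYR61 at 1.27 times and AMOTL2 at 1.26 times (SD, n = 4). AMOTL2 was the gene whose groups overlapped, since its lowest gefitinib library (30.2 FPKM) was below its highest vehicle library (30.4 FPKM).

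Of the 3 genes on the other side, F3 was at 0.564 times its vehicle mean (128 ± 7.15 FPKM), PTPN14 at 0.663 times (5.97 ± 0.508 FPKM) and CRIM1 at 0.826 times (42.5 ± 2.98 FPKM). The log2 differences ran from 1.16 for CTGF to -0.82 for F3. In this comparison 27.7% of all loci were called higher and 36.9% lower, and the groups did not overlap for 25.2% that were higher and 35.7% that were lower. The 5-to-3 division held under quantile normalization, median-ratio scaling and the correction for length and GC content, under which the difference of CRIM1 was -0.15 and that of AMOTL2 0.49.

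Whether the split recurred was examined by adding gefitinib to AZ1366, in libraries outside the comparison of gefitinib with vehicle. The genes were chosen with earlier results of these data known, so these libraries may not be independent of that choice. Such a recurrence was common, since 87.4% of tested loci had the same sign in both gefitinib comparisons. For 52.3% of tested loci the sign was shared and both differences passed, so a repeat is not particular to these genes. The same 5 genes rose and the same 3 fell, and all 8 passed (limma), with 26.9% of loci called higher, 35.7% lower and 62.6% in either direction. CTGF rose from 9.17 to 19.1 FPKM, 2.09 times, a log2 change of 0.99 ± 0.045 (SE, adjusted p = 6.38e-12). ANKRD1 rose 1.85 times, from 4.87 ± 0.686 to 9.03 ± 0.607 FPKM (SD, n = 4; log2 change 0.78, adjusted p = 9.32e-08), and NUAK2 rose 1.52 times (log2 change 0.53, adjusted p = 4.68e-05). For each of these 3 genes the lowest library with both compounds was above the highest with AZ1366 alone, as for 22.7% of loci.

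AMOTL2 and CYR61 rose less. AMOTL2 was at 15.9, 10.7, 11.2 and 12.2 FPKM with AZ1366 and at 17.5, 19.1, 14.2 and 15.8 FPKM with both, and these groups overlapped at AZ1366 replicate 1 (log2 change 0.40 ± 0.11, SE, adjusted p = 0.00469). CYR61 moved from 79.8 ± 5.03 to 90.6 ± 6.29 FPKM (SD, n = 4), the smallest rise, at 0.18 on the log2 scale (adjusted p = 0.0111), and its lowest library with both (86.6 FPKM) was just above its highest with AZ1366 (86.1 FPKM).

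On the other side, F3 fell from 105 ± 8.91 to 53.5 ± 1.57 FPKM (SD, n = 4), a log2 change of -0.95 ± 0.061 (SE, adjusted p = 4.18e-10). PTPN14 fell by 40.6% to 3.05 ± 0.404 FPKM (log2 change -0.59, adjusted p = 5.49e-05) and CRIM1 by 26.7% to 21.6 ± 1.92 FPKM (log2 change -0.42, adjusted p = 0.000415). The groups of all 3 genes were apart, as were those of 30.8% of loci that were lower. With the correction for length and GC content these changes were -0.39 for PTPN14 and -0.27 for CRIM1.

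**Figure D4:**
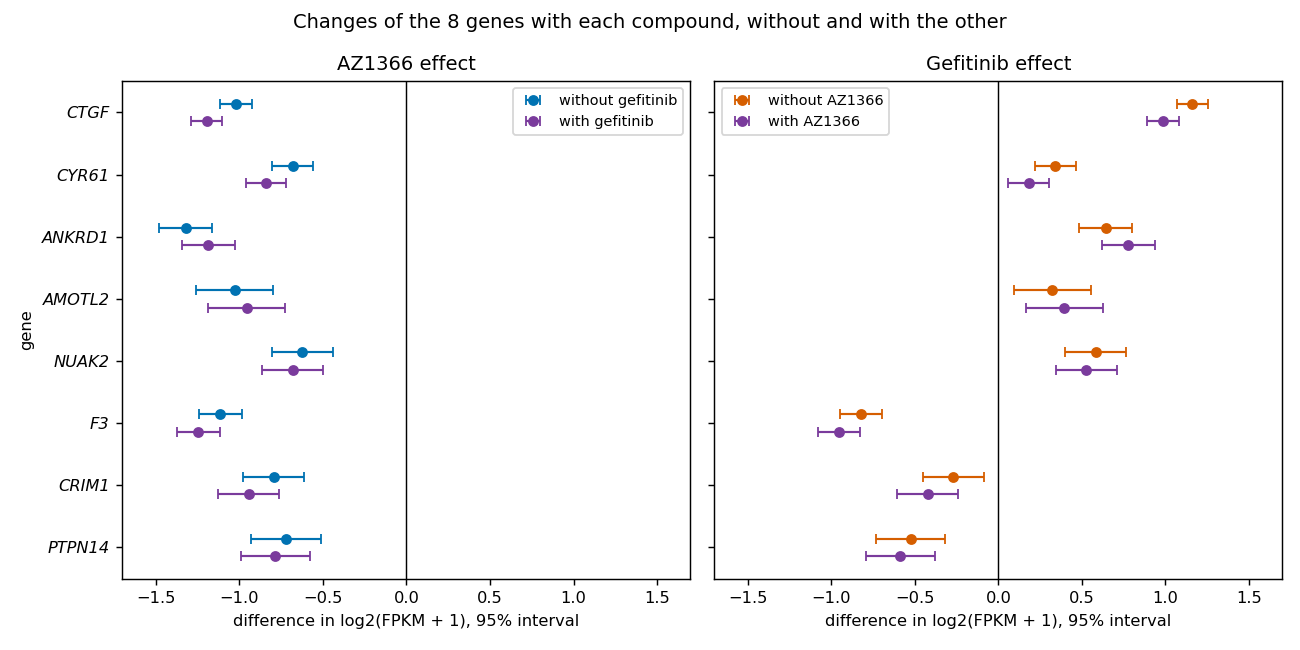
Differences in log2(FPKM + 1) with their 95% intervals for the 8 genes (vertical axis): the AZ1366 effect on the left, without and with gefitinib, and the gefitinib effect on the right, without and with AZ1366. On the left all values are below 0, and on the right 5 genes lie above 0 and F3, CRIM1 and PTPN14 below it.

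With both compounds the genes therefore ended at different places relative to vehicle. Of the 8, 6 were lower past the threshold and 2 did not pass, where 49.4% of loci were called lower and 79.3% in either direction. The same 6 had no overlap with vehicle, as had 48.1% of loci. F3 was lowest, at 53.5 FPKM against 228 ± 11.9 FPKM with vehicle, a fall of 76.5% and a log2 change of -2.07 ± 0.061 (SE, adjusted p = 1.18e-14). PTPN14 and CRIM1 followed with -1.31 (adjusted p = 1.33e-09) and -1.22 (adjusted p = 6.79e-10). These are the 3 genes that each compound alone left below vehicle.

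Among the genes that gefitinib left above vehicle, AMOTL2 changed by -0.63 (adjusted p = 4.36e-05), ANKRD1 by -0.54 (adjusted p = 3.47e-06) and CYR61 by -0.50 (adjusted p = 3.66e-07) on the log2 scale. CTGF was at 19.1 ± 0.765 FPKM with both and 19.6 ± 0.110 FPKM with vehicle (SD, n = 4), groups that overlapped, with a log2 difference of -0.03 (95% interval -0.13 to 0.06, adjusted p = 0.489). NUAK2 was at 7.85 ± 0.849 against 8.44 ± 0.398 FPKM, also overlapping, with -0.10 (95% interval -0.28 to 0.09, adjusted p = 0.309). The sign of these 2 small differences depended on scaling: CTGF was at 0.17 (adjusted p = 0.00620) after quantile normalization and 0.14 (adjusted p = 0.0232) after median-ratio scaling, and NUAK2 at 0.12 (adjusted p = 0.0382) and 0.06 (adjusted p = 0.308). The 2 genes are thus not shown to equal vehicle. The other 6 falls kept the call under these scalings, with some values smaller and some larger. Those that moved by over 1.5 times were CYR61, at -0.32 after median-ratio scaling, ANKRD1, at -0.31 after quantile normalization, and AMOTL2 at -0.23 and PTPN14 at -0.83 with the correction for length and GC content.

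The order of the 8 levels shifted between treatments. With vehicle it was F3, CYR61 (128 ± 5.59 FPKM), CRIM1, AMOTL2 (26.3 ± 2.84 FPKM), CTGF, ANKRD1 (13.6 ± 0.114 FPKM), PTPN14 and NUAK2, and only the last pair overlapped. With gefitinib CYR61 (163 ± 5.74 FPKM) stood above F3 in every library, and CTGF, then 3rd, overlapped CRIM1. With AZ1366 the order began as with vehicle, and NUAK2, PTPN14 and ANKRD1 overlapped at the bottom. With both compounds CYR61 was again first and PTPN14 last, with CRIM1 and CTGF, CTGF and AMOTL2, and ANKRD1 and NUAK2 as overlapping neighbours.

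Ratios within a library do not depend on how libraries were scaled to each other. CTGF stood at 0.0863 ± 0.00445 of F3 with vehicle and 0.0879 ± 0.00728 with AZ1366, but at 0.352 ± 0.0237 with gefitinib and 0.358 ± 0.00937 with both (SD, n = 4). The distance between gefitinib and vehicle in this ratio follows from the selection, since CTGF was chosen as higher and F3 as lower. AZ1366 left this ratio nearly unchanged, but not every ratio. ANKRD1 to CRIM1 was 0.264 ± 0.00944 with vehicle and 0.167 ± 0.0243 with AZ1366. It was 0.514 ± 0.0317 with gefitinib and 0.418 ± 0.0174 with both. CYR61 to F3 took 4 distinct values: 0.564 ± 0.0307 with vehicle, 0.762 ± 0.0263 with AZ1366, 1.27 ± 0.0445 with gefitinib and 1.69 ± 0.0767 with both.

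The summed FPKM of the 8 genes was 485 ± 13.5 in vehicle libraries and 453 ± 6.22 under gefitinib, against 251 ± 23.0 under AZ1366 and 221 ± 13.3 under both compounds (SD, n = 4). F3 made up 47.0% of that sum with vehicle, 41.8% with AZ1366, 28.3% with gefitinib and 24.2% with both. The share of CTGF was 4.05%, 3.68%, 9.97% and 8.65% in the same order. A sum over these genes therefore follows F3 and CYR61 more than it follows CTGF.

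Over the 16 libraries the genes formed the same 2 sets by correlation of log2(FPKM + 1), which is a description, since the groups that set these correlations also chose the genes. The 10 pairs among CTGF, CYR61, ANKRD1, AMOTL2 and NUAK2 had Pearson correlations of 0.872 to 0.966, and the 3 pairs among F3, CRIM1 and PTPN14 had 0.943 to 0.971. The 15 pairs across the sets ran from 0.157 (CTGF with F3) to 0.753 (AMOTL2 with CRIM1). After the group means were removed this division was not seen: the median correlation was 0.421 within the first set, 0.483 within the second and 0.599 across them. These remaining correlations share the library and its scaling.

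**Figure D5:**
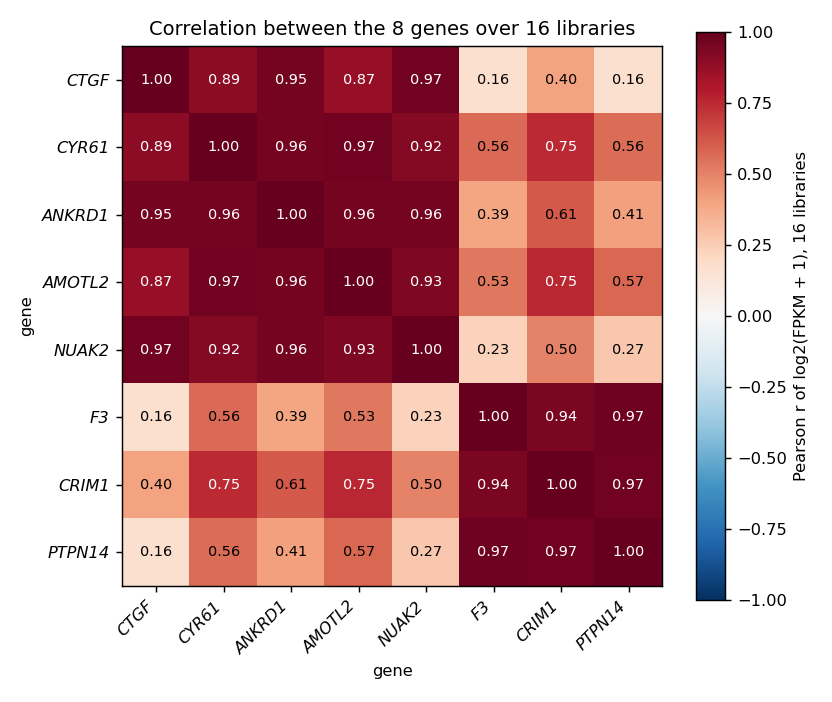
Pearson correlation of log2(FPKM + 1) over 16 libraries for each pair of the 8 genes (both axes list the genes; colour from -1 to 1). The block of CTGF, CYR61, ANKRD1, AMOTL2 and NUAK2 at 0.872 to 0.966 and the block of F3, CRIM1 and PTPN14 at 0.943 to 0.971 stand out from the 15 mixed pairs.

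For each gene the 3 other tested loci with the most similar pattern were listed. CTGF was most like TUFT1 (0.978), LOC643650 (0.978) and SLAMF7 (0.977), and SLAMF7 was also the closest to ANKRD1 (0.980), before FAM171A1 (0.974) and SPOCK2 (0.969). SPOCK2 recurred for AMOTL2 (0.994, after DYSF at 0.996 and before ANKRD33B at 0.988) and for CYR61 (0.969, after HS3ST2 at 0.990 and BDNF at 0.978). NUAK2 was closest to KRT80 (0.987), PAPSS2 (0.985) and MMP24 (0.985). For F3 the list included FGF5 (0.989) and MAOA (0.984). CRIM1 was closest to WWC1 (0.996), BNC1 (0.992) and PTRF (0.990), and PTPN14 to ASAP1 (0.991), PEG10 (0.991) and SLC46A1 (0.990). WWC1 encodes the Hippo regulator KIBRA, and ASAP1 is itself a YAP/TAZ target.

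The 8 genes belong to a published signature of 22 YAP/TAZ targets, of which the other 14 were all tested. AZ1366 lowered all 14 without gefitinib (median -0.57 on the log2 scale) and all 14 with it (median -0.56). These are the backgrounds of 39.8% and 37.2% lower calls given above, and under other scalings 12 to 14 of the 14 passed as lower and none as higher. Under quantile normalization, median-ratio scaling and the correction for length and GC content, 3615, 3534 and 3542 loci were called lower without gefitinib. With gefitinib these numbers were 3114, 3250 and 2967, of 11647 tested loci (11537 with the correction). AXL, a receptor tyrosine kinase, changed by -1.32 without gefitinib and -1.10 with it, and FJX1 by -1.17 without it.

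With gefitinib added to AZ1366, 6 of the 14 were higher, 6 were lower and 2 did not pass, where 26.9% of all loci were called higher and 35.7% lower. TGFB2 stood at 10.8 ± 2.45 FPKM with AZ1366 and 23.4 ± 2.39 FPKM with both (SD, n = 4), a rise of 1.06 on the log2 scale. NT5E, which encodes the ectonucleotidase CD73, fell by 1.93, from 123 ± 24.4 to 31.3 ± 3.34 FPKM, and ASAP1 fell by 0.61. Against vehicle, both compounds together left 8 of the 14 lower, where 49.4% of all loci were called lower, among them NT5E (-2.54), FJX1 (-2.02), AXL (-1.77) and ASAP1 (-1.37), and only TGFB2 higher (0.45, adjusted p = 0.00062), where 29.9% of loci were called higher. The number called higher against vehicle was 4 after median-ratio scaling, 3 with the correction for length and GC content and 2 after quantile normalization. In the same order 4708 of 11647, 4610 of 11537 and 4555 of 11647 loci were called higher. None of the 14 passed for the interaction (limma, 2 at an unadjusted p under 0.05).

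Of 23 genes of YAP, TAZ, the TEADs and the Hippo pathway, 22 were tested, AMOT being below the abundance filter. The list includes AMOTL2 and also LATS2, which is among the other targets above, so the falls of both are counted again here. AZ1366 lowered 15 and raised 3 of the 22 without gefitinib (TEAD2 by 0.51, MOB1A by 0.30 and VGLL4 by 0.24). With gefitinib it lowered 16 and raised 1 (TEAD2, by 0.39). In these comparisons 39.8% and 37.2% of all loci were called lower, and 18.6% and 15.3% higher. The call of MOB1A was lost without any one of CTRL replicates 1 and 4 and AZ1366 replicates 1, 3 and 4, and that of VGLL4 without CTRL replicate 3 or AZ1366 replicate 1 (adjusted p = 0.0531 and 0.0534). MOB1A also missed the threshold with no filter (adjusted p = 0.0513) and in a fit to the compared groups alone (adjusted p = 0.0737). Without CTRL 1 and AZ1366 1 its adjusted p was 0.168. Beside AMOTL2 the falls with the smallest p included FRMD6 (-0.84 without gefitinib and -0.82 with it) and WWC1 (-1.18 and -1.35), upstream regulators of the pathway, and NF2, the tumour suppressor merlin, at -0.88 without gefitinib. YAP1 itself changed little: by -0.25 with AZ1366 (adjusted p = 0.014), and its difference of -0.19 with AZ1366 added to gefitinib did not pass (adjusted p = 0.065). Under the other scalings the first of these ran from -0.15 to -0.12 and still passed, and it missed the threshold without AZ1366 replicate 2 (-0.20, adjusted p = 0.0540). The second was -0.088 after quantile normalization (adjusted p = 0.200), -0.073 after median-ratio scaling (adjusted p = 0.240) and -0.055 with the correction for length and GC content (adjusted p = 0.344). It passed without AZ1366 replicate 1 (adjusted p = 0.00805), without GEF_AZ1366 replicate 2 (-0.23, adjusted p = 0.0332) and with the replicate number as a block (adjusted p = 0.0390). It also passed in a fit to the compared groups alone (adjusted p = 0.0232) and without CTRL 1 and AZ1366 1 (adjusted p = 0.00847).

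WWTR1 was at 36.7 ± 1.02 FPKM with vehicle and 34.8 ± 7.07 FPKM with AZ1366 (log2 difference -0.10, adjusted p = 0.43), and at 15.8 ± 1.27 FPKM with gefitinib and 14.9 ± 1.57 FPKM with both (SD, n = 4). That small AZ1366 difference was 0.03 after median-ratio scaling, and -0.22 (adjusted p = 0.0102) without AZ1366 replicate 1. Added to AZ1366, gefitinib lowered WWTR1 by 1.16 on the log2 scale, while YAP1 did not pass (-0.14, adjusted p = 0.15). TEAD1 changed by -0.35 and TEAD4 by -0.45 with AZ1366, and by -0.55 and -0.54 when it was added to gefitinib. TEAD2 went from 4.19 ± 0.484 FPKM with vehicle to 12.7 ± 0.342 FPKM with both (log2 change 1.41). The part of these transcripts in the changes of the 8 genes was not tested.

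Genes induced by ERK signalling are given as the measure of EGFR inhibition in the libraries in which the 5 and the 3 genes part. When gefitinib was added to AZ1366, 10 of 10 such genes fell, where 35.7% of all loci were called lower. Their median was -1.31 on the log2 scale, against -0.05 over all loci, beside the rise of CTGF, CYR61, ANKRD1, AMOTL2 and NUAK2 and the fall of F3, CRIM1 and PTPN14 in the same libraries. These 10 genes also changed with AZ1366: against vehicle 5 were called lower and 1 higher, where 39.8% and 18.6% of all loci were. With AZ1366 added to gefitinib 3 were lower and 0 higher, where 37.2% and 15.3% were.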

How the data were processed

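Per the labels' protocols, total RNA of treated HCC4006 cells was extracted with a miRNeasy kit and polyA libraries were made with the TruSeq version 2 kit. The authors deposited FPKM values, 24293 loci by 16 libraries. The tools named in the submitters' processing notes are TopHat 1.4.1, Cufflinks 1.3.0 and Cuffdiff, and the build is hg19; the role of each, the annotation, any scaling between libraries and the use of strand are not given in the sources used here. The 8 genes matched the deposited symbols, and 0 per-sample columns went unused. The labels do not say whether libraries are separate cultures, and p-values reflect only how these libraries vary, which may be technical.

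The test was limma 3.58.1 (R 4.3.3) on log2(FPKM + 1) over the 11647 loci with a mean of at least 1 FPKM, with 4 groups, a mean-variance trend, 12 residual degrees of freedom and two-sided p-values adjusted by Benjamini-Hochberg over those loci (threshold 0.05). A fold change on this scale understates the change of low genes. The method was tested on simulated data. Pearson and Spearman correlations and tables were made in Python 3.11.15 with scipy 1.17.1 and pandas 2.3.3. Promoters came from RefSeq (GRCh38.p14) and loci coordinates are those of the deposited table, on hg19. The genes, the lists and the rule for named genes were chosen with earlier results of these data known. The rule names all 8 genes, up to 4 genes with the smallest p of each other list in each comparison, YAP1, WWTR1, TEAD1, TEAD4 and DUSP6, and the 3 loci most alike each of the 8; part of what it gave is printed, 1 locus among those most alike F3 is not reported here, and TEAD2, MOB1A, VGLL4 and TGFB2 are also named as members of small counts, after their values were seen.

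Alternatives were a pseudocount of 0.1, no filter, a stricter filter (mean of 5 FPKM, 8037 loci), scaling by quantiles or by median ratios, no trend, a fit to the compared groups alone, a replicate block, a correction for transcript length and GC content (11537 loci, 99.1%, with 5 spline terms each), and leaving out each library, or CTRL 1 and AZ1366 1 together. Deviations of same-numbered libraries from their group means correlated at over 0.1 in 16 of 24 pairs (range -0.447 to 0.539), and in every pair only between GEF and GEF_AZ1366 (0.224 to 0.321).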

Additional observations from a re-analysis of the deposited data

Results flagged for a closer look

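Of 32 groups of 4 libraries (8 genes in 4 treatments), 3 held a library far from the other 3 by Dixon's test, where chance gives about 1 in 20. CYR61 was at 99.9 FPKM in GEF_AZ1366 replicate 2, the highest of its group. Gefitinib replicate 4 was flagged for 2 genes, as the lowest for ANKRD1 (19.4 FPKM) and the highest for F3 (139 FPKM). Its values for both genes lay on the side of the other 3 gefitinib libraries relative to vehicle.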

How the results depend on the processing

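The 8 falls with AZ1366, the 8 with AZ1366 added to gefitinib and the 5 rises and 3 falls with gefitinib added to AZ1366 kept their sign and call under every alternative run, each library left out in turn included, and 0 of 8 genes passed for the interaction in any. In the alternatives over the same 11647 loci, 5902 to 7894, 4879 to 7082 and 6699 to 7765 loci were called in these comparisons, in the same order. Depth is unknown, so the precision of low values such as those of PTPN14 cannot be stated beyond the spread of libraries.

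Scaling moved small differences. For both compounds against vehicle, CTGF was at -0.03, and at 0.17 after quantile normalization, 0.14 after median-ratio scaling and 0.065 with the correction for length and GC content (adjusted p = 0.187). NUAK2 was at -0.10, and at 0.12, 0.064 and 0.24 (adjusted p = 4.60e-05) in the same order. WWTR1, at -0.10 with AZ1366, was at 0.026 after median-ratio scaling and 0.029 with that correction. Interactions that changed sign were those of AMOTL2 (0.07, and -0.015 with that correction), NUAK2 (-0.06, with a range of -0.117 to 0.043 when 1 library was left out, above 0 without AZ1366 replicate 1 or GEF_AZ1366 replicate 3, and 0.020 without CTRL 1 and AZ1366 1) and PTPN14 (-0.06, with a range of -0.129 to 0.051, above 0 without AZ1366 replicate 1, and 0.043 without CTRL 1 and AZ1366 1). The median of all loci shifted by 0.154 for both compounds against vehicle after median-ratio scaling and by at most 0.142 for the other scalings and comparisons.

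Median-ratio scaling gave 3540 higher and 3534 lower loci for AZ1366 against vehicle (2168 and 4633 as deposited), 3099 and 3250 for AZ1366 added to gefitinib (1780 and 4338), and 4708 and 4691 for both against vehicle (3488 and 5753). The interaction was called for 212 loci, 620 after quantile normalization, 419 after median-ratio scaling, 664 with the correction for length and GC content and 101 to 513 with 1 library left out. Of the Hippo genes 0 passed for it, but 2, 1 and 2 did in those first 3 settings, and of the 14 other targets 0 to 2 did with 1 library left out (AXL and NT5E without AZ1366 replicate 1). The cause was not tested. With the replicate block, 8 of 8 genes passed for AZ1366 against vehicle, for AZ1366 added to gefitinib and for gefitinib added to AZ1366. For both compounds against vehicle 6 of the 8 passed, and 0 for the interaction. In these 4 comparisons 7131, 6522, 7613 and 9388 of 11647 loci were called in either direction, and 227 for the interaction. The block changed no call of the 8 genes.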
